A study of Mus musculus with 378 samples.

Results

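The 6 genes described here encode transcription factors that T cells switch on when their antigen receptor is engaged. They are the 3 NR4A orphan nuclear receptors Nr4a1, Nr4a2 and Nr4a3 and the EGR zinc-finger factors Egr1, Egr2 and Egr3. They were chosen by name, as 6 rows of a table of 23420 genes, and all 6 were found. Fos and Junb, subunits of the AP-1 factor that many kinds of stimulus and cell handling induce, were measured beside them. The cells were infiltrating T cells of B16F10 tumours, grafts of a mouse melanoma line, in C57BL/6 mice. The groups were CD8 cells labelled Il27ra KO (92 single-cell libraries), CD8 cells labelled WT (94), CD4 cells labelled KO (94) and CD4 cells labelled WT (94), each with 1 population library. Il27ra encodes a subunit of the IL-27 receptor, and the study's question was the gene signature that IL-27 gives tumour T cells. The sources used here give no age of the animals, no description of the Il27ra allele and no number of mice. The treatment protocol speaks of CD8+ cells, and CD4 is taken from the titles alone.

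A T cell receptor signal raises calcium and activates ERK. Calcium acts through calcineurin, NFAT and MEF2, and ERK acts through SRF and its ELK partners, and both routes lead to transcription of NR4A and EGR genes within a short time. NR4A proteins bind DNA without a known ligand, and in mouse T cells they are known for driving dysfunction of tumour-infiltrating CD8 cells and for the development of regulatory T cells. Egr1 is a broad early-response factor, while Egr2 and Egr3 are known for limiting T cell activation and for anergy. Nab1 and Nab2 are corepressors that bind EGR proteins.

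Of 374 single-cell libraries, 76 held fewer than 1000 genes above 0 FPKM (fragments per kilobase of transcript, scaled to library size) and were left out. Kept were 74 CD8 labelled KO, 67 CD8 WT, 78 CD4 labelled KO and 79 CD4 WT. Their median number of genes was 2797 in CD8 labelled KO, 2919 in CD8 WT, 2650.5 in CD4 labelled KO and 2307 in CD4 WT, and the median reads estimated from the table lay between 213569 and 313365. Il27ra did not follow the labels in single cells. It was above 0 in 52.7% of CD8 cells labelled KO (40.7 to 64.4%) against 38.8% of WT CD8 cells (27.1 to 51.5%), and in 52.6% of CD4 cells labelled KO (40.9 to 63.99%) against 48.1% of WT CD4 cells (36.7 to 59.6%). The population libraries held 90.8 FPKM in CD8 labelled KO against 47.6 in WT CD8, and 95.2 in CD4 labelled KO against 255.97 in WT CD4. Where the deletion lies in the gene is not given, so this level may not test it. KO is therefore a label here, and each direction is by label. Each genotype and cell type is 1 sample with no named animal, so cells are not replicates, no p-value was made, SDs are over cells and the exact 95% intervals (Clopper-Pearson) cover counting error only. B2m, which every T cell uses, was at 0 in 8 WT CD8 and 6 WT CD4 kept cells and in 0 cells labelled KO. The Cd8a and Cd8b1 sum had medians of 1867.5 FPKM in CD8 cells labelled KO and 1762.4 FPKM in WT CD8 cells, and a median of 0 in both CD4 groups. Macrophage and class II antigen presentation marker sums had a median of 0 in all 4 groups of single cells, but 7 CD8 cells labelled KO and 2 WT CD8 cells held at least 3 class II markers, and 8 CD8 cells labelled KO and 1 WT CD8 cell at least 3 dendritic cell markers.

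The upstream DNA of the NR4A genes is shown first, because the 3 genes share a short sequence there. The windows are RefSeq promoters on GRCm38.p6 and were searched over the 250 bases before the RefSeq start. Capitals mark TGACG or its reverse complement CGTCA, the core of the cyclic AMP response element bound by CREB and CREM, and in Nr4a1 also the EGR-binding letters CGCCCCCGC. The Nr4a1 window is chr15:101266596-101266845 on the plus strand and lies in an intron of the longer annotated gene. The Nr4a2 window is chr2:57124004-57124253 on the minus strand, and the Nr4a3 stretch is chr4:48045055-48045152 on the plus strand, the first 98 bases of its window, since the rest lies in an exon of GENCODE M21, which starts the gene further upstream than RefSeq does.
Nr4a1: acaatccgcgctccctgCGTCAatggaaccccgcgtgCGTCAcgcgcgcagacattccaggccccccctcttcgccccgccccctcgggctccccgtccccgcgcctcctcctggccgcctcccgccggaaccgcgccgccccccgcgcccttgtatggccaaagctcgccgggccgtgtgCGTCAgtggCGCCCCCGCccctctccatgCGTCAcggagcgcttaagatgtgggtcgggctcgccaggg
Nr4a2: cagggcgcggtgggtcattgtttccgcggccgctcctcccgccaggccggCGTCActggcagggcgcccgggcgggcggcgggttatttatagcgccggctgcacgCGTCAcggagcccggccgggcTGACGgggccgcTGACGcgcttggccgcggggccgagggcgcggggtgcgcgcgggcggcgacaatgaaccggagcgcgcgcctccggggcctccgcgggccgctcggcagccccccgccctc
Nr4a3: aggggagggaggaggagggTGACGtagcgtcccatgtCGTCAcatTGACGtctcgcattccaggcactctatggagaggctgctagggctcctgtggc
The core lay at 4 places in the 250 bases before the RefSeq start of each of Nr4a1, Nr4a2 and Nr4a3. For Nr4a3, 3 of the 4 fall in the stretch shown and 1 in the GENCODE exon. It lay at 2 places for Fos, 1 for Junb and 0 for Egr2. Of 32817 promoter windows of this length, 17.8% held the core at least once on either strand and 45 (0.137%) held it at 4 or more places. That count was chosen after the sites were seen. The Egr motif, GCGTGGGCG or GCGGGGGCG on either strand, lay in Nr4a1 only among the NR4A genes and in 3.06% of all windows. The full element TGACGTCA (1.55% of windows), the AP-1 motif TGANTCA (6.75%), the NR4A monomer site AAAGGTCA (1.34%) and the CArG box bound by SRF (1.47%) were in none of the windows of Nr4a1, Nr4a2, Nr4a3, Egr2, Fos and Junb. The NFAT core GGAAA was in the Nr4a2 window only among these 6, and in 55.6% of all windows. These are matches of letters and not measured binding. Egr1 and Egr3 were not searched, and for Egr2 only the first window by position was used. Sites more than 250 bases before the start lay outside the search, so an absence holds for these windows only.

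Nr4a1, the NR4A receptor most used as a readout of T cell receptor signal, was the most widely found of the 6 in every group but WT CD8, where Nr4a2 was. It was above 0 in 58.1% of CD8 cells labelled KO (43 of 74, interval 46.1 to 69.5%) and 43.3% of WT CD8 cells (29 of 67, 31.2 to 55.96%). Among CD4 cells the shares were 70.5% labelled KO (55 of 78, 59.1 to 80.3%) and 53.2% WT (42 of 79, 41.6 to 64.5%). Its FPKM ran from 0 through a median of 55.7 to 7396 in CD8 labelled KO, and from 0 through a median of 0 to 4456 in WT CD8. In CD4 it ran from 0 through a median of 217.7 to 7560 in cells labelled KO, and from 0 through a median of 8.53 to 3936 in WT cells. All 4 groups span nearly the same range, and intervals of groups next to each other in the order of shares overlap. Nr4a1 is at 15:101254269-101274795 in the GENCODE M21 annotation of mm10, and none of the 6 genes overlaps another gene there. The population libraries held 1315 FPKM in CD8 labelled KO, 338.6 in WT CD8, 2002 in CD4 labelled KO and 927 in WT CD4, so the libraries labelled KO were the higher of each pair.

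Nr4a2 (2:57106830-57124003) had the clearest split by cell type. It was above 0 in 36.5% of CD8 cells labelled KO (27 of 74, 25.6 to 48.5%), 49.3% of WT CD8 cells (33 of 67, 36.8 to 61.8%), 15.4% of CD4 cells labelled KO (12 of 78, 8.21 to 25.3%) and 3.80% of WT CD4 cells (3 of 79, 0.790 to 10.7%). The intervals of either CD8 group and either CD4 group do not overlap, while those of the genotypes within a cell type do. Highest values were 3107 FPKM in CD8 labelled KO, 3982 in WT CD8, 939 in CD4 labelled KO and 61.6 in WT CD4, and the median was 0 in each. Population libraries held 294.5 FPKM in CD8 labelled KO, 183.9 in WT CD8, 100.7 in CD4 labelled KO and 52.6 in WT CD4.

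Nr4a3, the remaining NR4A receptor (4:48045153-48086447), had lower levels. It was above 0 in 37.8% of CD8 cells labelled KO (28 of 74, 26.8 to 49.9%) and 23.9% of WT CD8 cells (16 of 67, 14.3 to 35.9%). Among CD4 cells the shares were 39.7% of those labelled KO (31 of 78, 28.8 to 51.5%) and 13.9% of WT (11 of 79, 7.16 to 23.5%), and these CD4 intervals do not overlap. The highest values were 764 FPKM in CD8 labelled KO, 328.5 in WT CD8, 548 in CD4 labelled KO and 58.4 in WT CD4. The population libraries held 43.9 FPKM in CD8 labelled KO, 5.07 in WT CD8, 45.2 in CD4 labelled KO and 17.1 in WT CD4, the WT library being the lower of each pair.

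**Figure D1:**
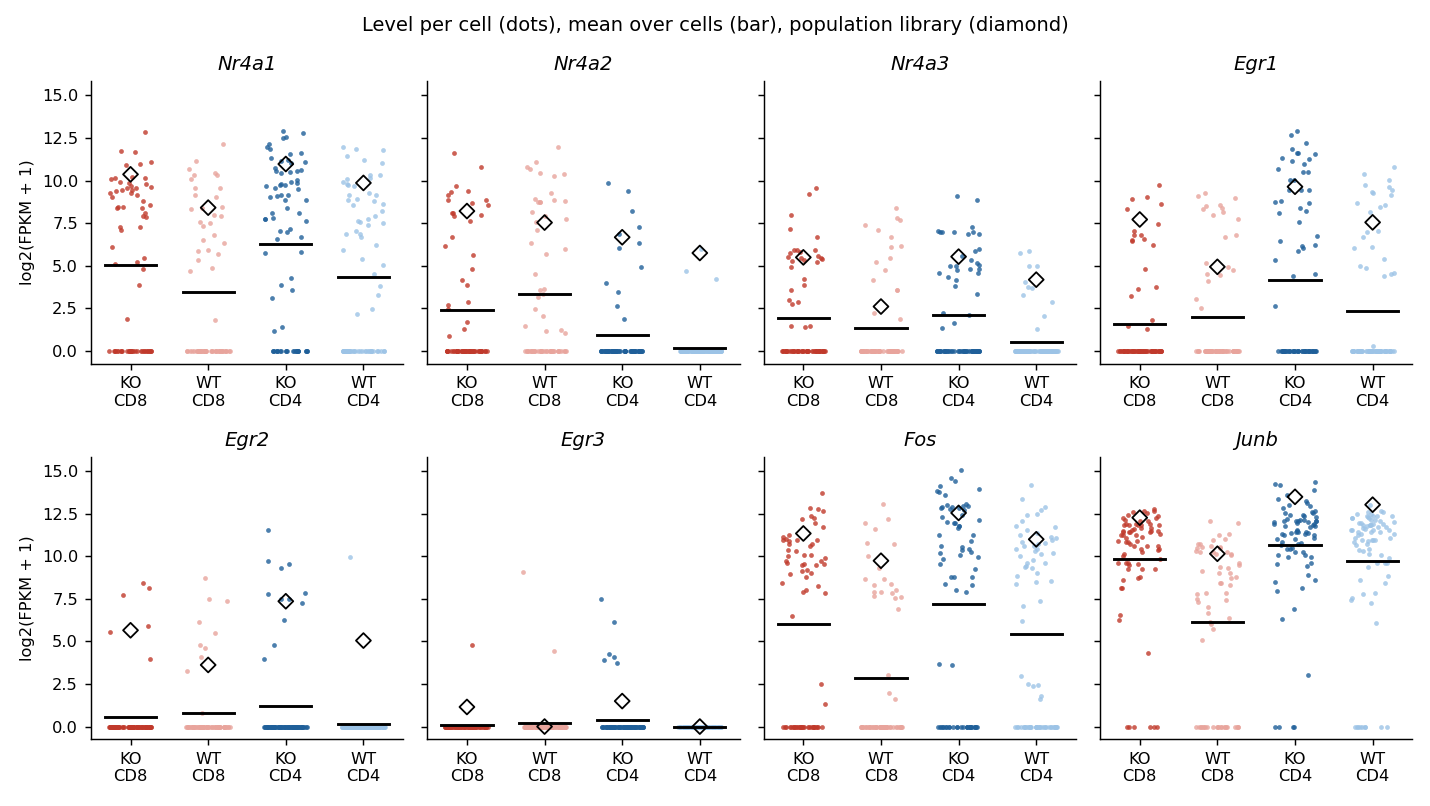
Level of each gene as log2(FPKM + 1) in each kept cell (dots), with the mean over cells (bar) and the population library (diamond), for CD8 labelled KO, CD8 WT, CD4 labelled KO and CD4 WT. Nr4a2 dots above 0 number 27 in CD8 labelled KO, 33 in WT CD8, 12 in CD4 labelled KO and 3 in WT CD4.

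Egr1 (18:34859823-34864984) was most often found in CD4 cells labelled KO. It was above 0 in 27.03% of CD8 cells labelled KO (20 of 74, 17.4 to 38.6%) and 29.9% of WT CD8 cells (20 of 67, 19.3 to 42.3%). Among CD4 cells the shares were 46.2% of those labelled KO (36 of 78, 34.8 to 57.8%) and 31.6% of WT (25 of 79, 21.6 to 43.1%). Intervals of all 4 groups overlap. The groups stood further apart in how high the values went: 16 CD4 cells labelled KO and 3 WT CD4 cells exceeded 1000 FPKM, and 0 CD8 cells of either label did. Population libraries held 208.7 FPKM in CD8 labelled KO, 29.5 in WT CD8, 794 in CD4 labelled KO and 185.6 in WT CD4.

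Egr2 and Egr3, the EGR factors linked to anergy, were rare. They are at 10:67535475-67542188 and 14:70077203-70082614. Egr2 was above 0 in 8.11% of CD8 cells labelled KO (6 of 74, 3.03 to 16.8%), 14.9% of WT CD8 cells (10 of 67, 7.40 to 25.7%), 15.4% of CD4 cells labelled KO (12 of 78, 8.21 to 25.3%) and 1.27% of WT CD4 cells (1 of 79, 0.0320 to 6.85%). The WT CD4 interval does not overlap that of CD4 labelled KO or that of WT CD8. That 1 WT CD4 cell held 999.7 FPKM. Egr3 was above 0 in 1 of 74 CD8 cells labelled KO, 2 of 67 WT CD8 cells, 6 of 78 CD4 cells labelled KO and 0 of 79 WT CD4 cells. A count of 0 there allows a share of cells with a value of up to 3.80% by a limit of 3 counts (4.56% by the exact interval), which says nothing of cells expressing it below detection. The population libraries held 49.3 FPKM of Egr2 in CD8 labelled KO, 11.3 in WT CD8, 162.8 in CD4 labelled KO and 32.1 in WT CD4, and at most 1.82 FPKM of Egr3.

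**Figure D2:**
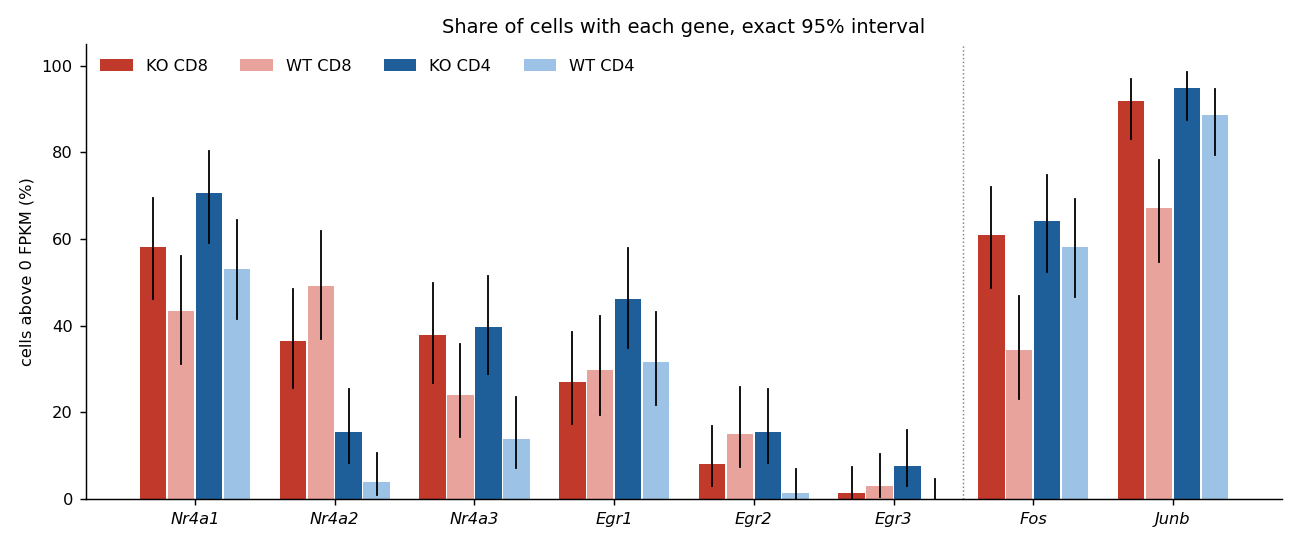
Percent of kept cells with each gene above 0 FPKM in the 4 groups, with exact 95% intervals, the handling pair Fos and Junb right of the dotted line. Nr4a2 stands at 36.5% in CD8 labelled KO, 49.3% in WT CD8, 15.4% in CD4 labelled KO and 3.80% in WT CD4.

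Fos and Junb were also higher in cells labelled KO, but in CD4 their shares of cells above 0 were not higher in every setting. Fos was above 0 in 60.8% of CD8 cells labelled KO against 34.3% of WT CD8 cells, and in 64.1% of CD4 cells labelled KO against 58.2% of WT CD4 cells. Junb was above 0 in 91.9% of CD8 cells labelled KO against 67.2% of WT CD8 cells, and in 94.9% of CD4 cells labelled KO against 88.6% of WT CD4 cells. Without cells that lack B2m or Cd3 genes, Fos was above 0 in 63.6% of CD4 cells labelled KO against 63.9% of WT CD4 cells and Junb in 94.8% against 95.8%, and the difference of mean log2(FPKM + 1) was 0.15 for Junb and 1.13 for Fos, against 0.94 and 1.74 in all kept CD4 cells. Junb overlaps Prdx2 on the other strand, so reads in the overlap cannot be assigned to either. In the 76 libraries under the gene minimum Junb was above 0 in 9 (11.8%), Fos in 1 (1.32%), Egr1 in 3 (3.95%) and Nr4a1 in 1 (1.32%). Nr4a2, Nr4a3, Egr2 and Egr3 were above 0 in 0 of them, which allows a share of up to 3.95% by a limit of 3 counts (4.74% by the exact interval), in libraries with few genes of any kind.

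In CD8 cells the difference labelled KO minus WT split the 6 genes. Means over cells of log2(FPKM + 1) were subtracted, a scale on which the result follows the share of cells above 0 as well as the level. Mean log2 of Nr4a1 was 5.02 ± 4.61 in CD8 labelled KO (SD over 74 cells) and 3.43 ± 4.23 in WT CD8 (SD over 67 cells), a difference of 1.6. Nr4a2 went the other way, with 2.40 ± 3.69 in CD8 labelled KO and 3.31 ± 4.13 in WT CD8, a difference of -0.91. Every one of these SDs exceeds the difference beside it. Differences were 0.61 for Nr4a3, -0.37 for Egr1, -0.25 for Egr2 and -0.14 for Egr3, against 3.15 for Fos and 3.74 for Junb. So 1 of 6 genes was past a difference of 1 upwards and 0 downwards, where 5.94% of 9031 genes were past it upwards and 3.82% downwards. The background genes were those above 0 in at least 10% of cells of either group, which Egr3 did not reach. Egr2 reached it only through the WT cells. The median of the 6 was -0.19, against -0.08 over the background genes.

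The Nr4a1 difference in CD8 was smaller in cells alike in whether Fos or Junb was above 0. It was 0.82 among cells with Fos above 0, 0.18 among cells with Fos at 0 and 0.74 among cells with Junb above 0, and 0.89 without cells that lack B2m or Cd3 genes. Nr4a2 was lower in CD8 labelled KO in the same cells, at -2.04 with Fos above 0, -0.24 with Fos at 0 and -2.07 with Junb above 0. The levels of Fos and Junb were not made equal in these cells. With Fos above 0, Fos differed by 1.56 and Junb by 2.70. Junb differed by 3.06 with Fos at 0. With Junb above 0, Fos differed by 2.54 and Junb by 1.61. Matched on genes detected, Nr4a2 differed by -0.30 (48 cells each). Without cells that hold at least 3 markers of other types, which left 55 CD8 cells labelled KO and 59 WT CD8 cells, Nr4a3 differed by 0.17 in place of 0.61, and Nr4a2 by -1.41. The part of handling or of other cell types in these differences was not tested.

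The CD8 population libraries gave another picture. All 6 genes were higher in the library labelled KO, 5 of them by at least 1, Egr3 among these only as 1.22 FPKM against a listed 0, where 21.5% of 12547 genes were past 1 upwards and 21.5% downwards. The differences were 1.95 for Nr4a1, 0.68 for Nr4a2, 2.89 for Nr4a3, 2.78 for Egr1, 2.04 for Egr2 and 1.15 for Egr3, with 1.6 for Fos and 2.12 for Junb. Nr4a2, Egr1, Egr2 and Egr3 thus had opposite directions in the population libraries and the single cells. These 2 libraries differed in content: summed melanoma markers stood at 45.9 FPKM in CD8 labelled KO and 14658 in WT CD8, and class II antigen presentation markers at 20863 in CD8 labelled KO and 158.1 in WT CD8. Their part in the result was not tested. In a population library, fewer cells of a type and less RNA per cell cannot be told apart.

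In CD4 cells all 6 genes were higher in cells labelled KO. Mean log2 of Nr4a1 was 6.28 ± 4.71 in CD4 labelled KO (SD over 78 cells) and 4.31 ± 4.47 in WT CD4 (SD over 79 cells), a difference of 1.96. Egr1 had 4.13 ± 4.83 in CD4 labelled KO and 2.32 ± 3.71 in WT CD4, a difference of 1.81. Nr4a3 had 2.09 ± 2.86 in CD4 labelled KO and 0.54 ± 1.45 in WT CD4, a difference of 1.55. These SDs again exceed the differences, except that of Nr4a3 in WT CD4 cells, which is slightly smaller. Differences were 1.07 for Egr2, 0.72 for Nr4a2 and 0.38 for Egr3, against 1.74 for Fos and 0.94 for Junb. So 4 of 6 were past 1 upwards and 0 downwards, where 7.73% of 8176 genes were past it upwards and 0.342% downwards. Nr4a2 and Egr2 reached the 10% filter only through the cells labelled KO. The median of the 6 was 1.31, against 0.17 over the background genes.

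All 6 were higher in CD4 labelled KO in each of 13 alternative settings, between 0.70 and 2.57 for Nr4a1 and between 0.80 and 2.36 for Egr1. Egr3, above 0 in 0 of 79 WT CD4 cells, could not come out lower in any setting. Egr2 was above 0 in 1 of these WT cells and Nr4a2 in 3, so their directions had little room to turn. The lowest Nr4a1 value, 0.70, came from cells with Fos at 0, where Egr1 differed by 0.87 and Egr2 by 0.28. Egr1 differed by 0.80 in cells with at least 2000 genes. The CD4 population libraries showed the same directions, with 5 of 6 past 1 upwards, Egr3 among these only as 1.82 FPKM against a listed 0, where 17.6% of 11932 genes were past it upwards and 23.1% downwards, and differences from 0.92 for Nr4a2 to 2.31 for Egr2. WT CD4 titles hold p3 where the other groups hold p2, an unexplained mark that cannot be told apart from the group, and WT CD4 cells had the fewest genes.

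**Figure D3:**
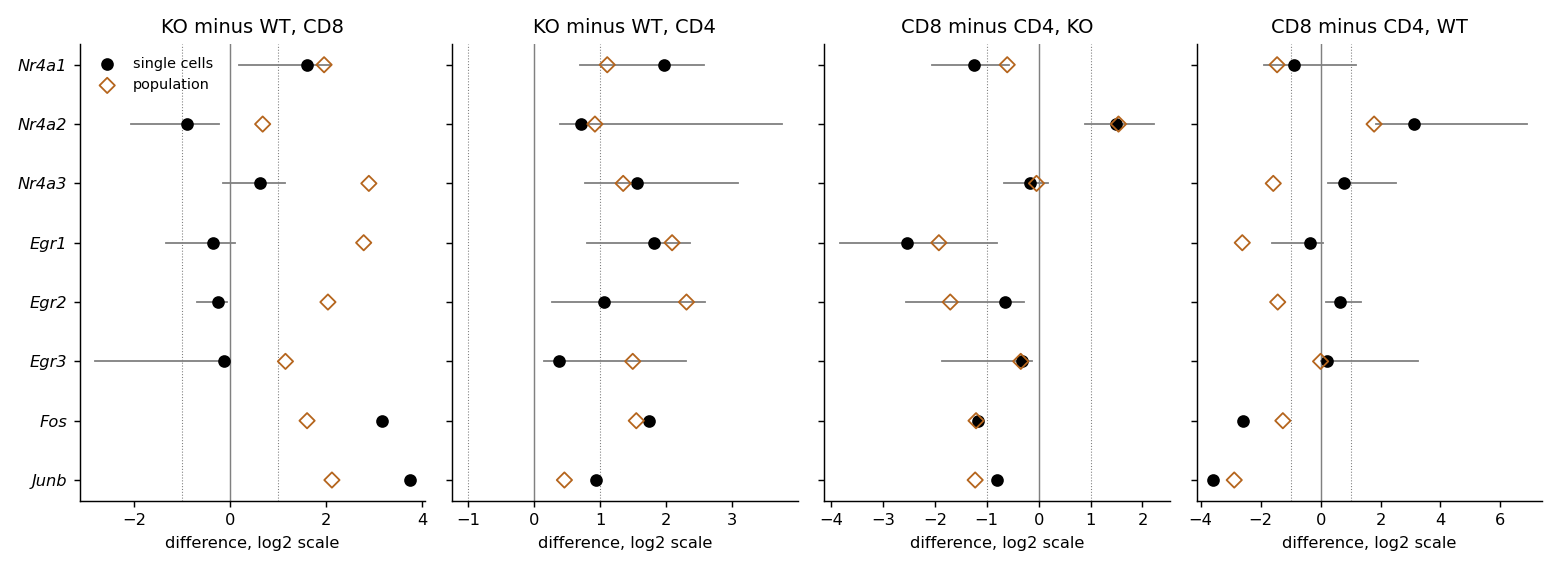
Difference of mean log2(FPKM + 1) over single cells (filled circles) and of the population libraries (open diamonds), labelled KO minus WT in the 2 panels on the left and CD8 minus CD4 in the others. Grey lines span 13 alternative settings and dotted lines mark 1 and -1; in CD8 the circles lie on both sides of 0, and in CD4 all 6 lie right of it.

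Between cell types, Nr4a2 was higher in CD8, and Nr4a1 and Egr1 lower in CD8, under both labels, while Nr4a3, Egr2 and Egr3 had a sign that differed by label. CD8 minus CD4, Nr4a2 differed by 1.49 in cells labelled KO and 3.12 in WT cells, and was higher in 13 of 13 alternative settings, at 0.90 to 2.23 in cells labelled KO and 1.86 to 6.88 in WT cells. Egr1 differed by -2.53 in cells labelled KO and -0.35 in WT cells, and Nr4a1 by -1.25 in cells labelled KO and -0.89 in WT cells. In WT cells with Fos above 0 Nr4a1 differed by 1.17 and Egr1 by 0.05. Nr4a3 differed by -0.17 in cells labelled KO and 0.77 in WT cells, Egr2 by -0.66 labelled KO and 0.66 WT, and Egr3 by -0.31 labelled KO and 0.20 WT. Fos and Junb were both lower in CD8 cells, Fos by -1.17 in cells labelled KO and -2.59 in WT cells, and Junb by -0.81 in cells labelled KO and -3.60 in WT cells, the direction opposite to that of Nr4a2. Past 1 were 1 gene upwards and 2 downwards in cells labelled KO, where 7.7% of 8473 genes were past it upwards and 2.79% downwards, and 1 upwards and 0 downwards in WT cells, where 14.1% of 8961 genes were past it upwards and 2.08% downwards. Among WT cells Nr4a2, the gene past 1 upwards, and Egr2 reached the 10% filter only through CD8 cells. Among cells labelled KO, Egr2 reached it only through CD4 cells. In the population libraries Nr4a2 differed by 1.54 labelled KO and 1.79 WT, and Egr1 by -1.92 labelled KO and -2.61 WT. Nr4a3 and Egr2 had another sign in the WT population libraries than in WT single cells, at -1.58 and -1.43. In all, 1 gene was past 1 upwards and 4 downwards in the WT population libraries, where 26% of 12562 genes were past it upwards and 24.9% downwards. These comparisons share their cells with those between labels.

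Most cells held at least 1 of the 6 genes. None of them was above 0 in 21.6% of CD8 cells labelled KO, 29.9% of WT CD8 cells, 15.4% of CD4 cells labelled KO and 32.9% of WT CD4 cells. At least 3 of them were found in 17 of 74 CD8 cells labelled KO (22.97%), 18 of 67 WT CD8 cells (26.9%), 27 of 78 CD4 cells labelled KO (34.6%) and 3 of 79 WT CD4 cells (3.80%). The most in any cell was 5, found in 1 CD8 cell labelled KO, 6 WT CD8 cells, 4 CD4 cells labelled KO and 0 WT CD4 cells, where the most was 3. Egr2 and Egr3 were often found with Nr4a1 or Egr1, though in few cells. In CD4 labelled KO, Egr1 was above 0 in 91.7% of the 12 cells with Egr2 against 37.9% of the others, and Nr4a1 in 83.3% against 68.2%. All 6 CD4 cells labelled KO with Egr3 held both Egr1 and Nr4a1. In CD8 labelled KO Nr4a1 was above 0 in all 6 cells with Egr2 against 54.4% of the others, and in WT CD8 in 80% of 10 against 36.8%. The 1 WT CD4 cell with Egr2 held Egr1 and not Nr4a1. With Nr4a3, Nr4a1 was above 0 in 82.1% against 43.5% of CD8 cells labelled KO without it, in 87.5% against 29.4% in WT CD8, in 83.9% against 61.7% in CD4 labelled KO and in 81.8% against 48.5% in WT CD4. Egr1 did not go with the other genes throughout: of 11 WT CD4 cells with Nr4a3, 1 held it. Cells differed in the number of genes detected, and WT CD4 cells had the lowest median, 2307. The part of depth in finding these genes together was not tested.

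**Figure D4:**
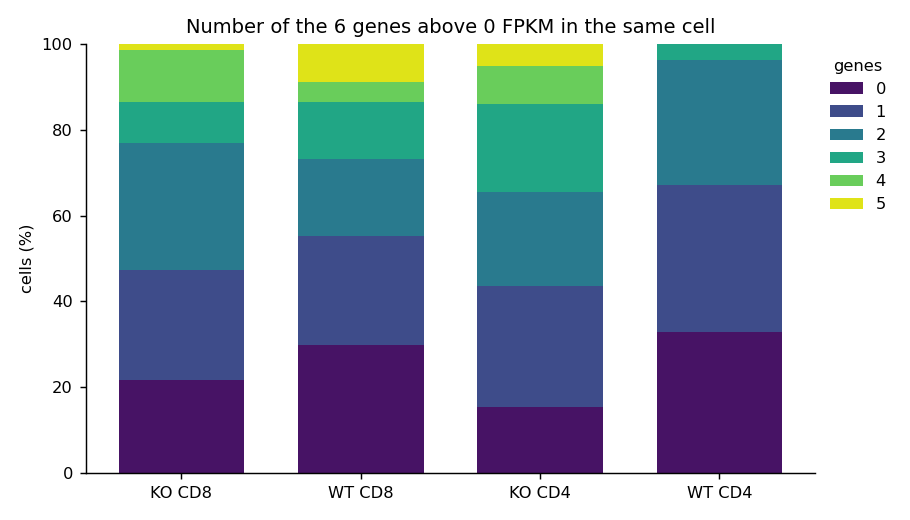
Percent of kept cells by how many of the 6 genes were above 0 FPKM in the same cell, for the 4 groups. The colours for 3 or more genes cover 22.97% of CD8 labelled KO, 26.9% of WT CD8, 34.6% of CD4 labelled KO and 3.80% of WT CD4.

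In cells with both Fos and Junb above 0, Nr4a1 was found more often than in cells with neither in all 4 groups, and Nr4a2 in both CD8 groups. Among cells with both Fos and Junb above 0, Nr4a1 was found in 77.8% of CD8 labelled KO (35 of 45), 80% of WT CD8 (16 of 20), 80% of CD4 labelled KO (40 of 50) and 57.8% of WT CD4 (26 of 45). Among cells with neither, it was found in 0 of 6 CD8 labelled KO, 2 of 19 WT CD8, 2 of 4 CD4 labelled KO and 0 of 8 WT CD4, few cells in each. Among cells with Junb alone it was found in 34.8% of CD8 labelled KO, 44% of WT CD8, 54.2% of CD4 labelled KO and 64% of WT CD4, so in WT CD4 the share was not lower without Fos. WT CD8 cells with both had a median of 3457 genes against 2255 in those with neither, and the part of depth in these shares was not tested. Nr4a2 was found in 35.6% of CD8 cells labelled KO with both, 47.8% with Junb alone and 0 of 6 with neither, and in 65% of WT CD8 cells with both, 64% with Junb alone and 15.8% with neither. In CD4 labelled KO it was found in 20% with both and 8.33% with Junb alone, and in WT CD4 in 6.67% with both and 0 of 25 with Junb alone. Among CD4 cells with neither, Nr4a2 was found in 0 of 4 labelled KO and 0 of 8 WT, too few cells to compare. Egr1 in CD4 labelled KO was found in 56% of cells with both and 33.3% with Junb alone.

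Within CD8 cells, Nr4a2 went with Pdcd1, the gene of the inhibitory receptor PD-1. It was above 0 in 71.4% of Pdcd1-positive cells (15 of 21, 47.8 to 88.7%) against 22.6% of cells with Pdcd1 at 0 (12 of 53, 12.3 to 36.2%) among CD8 labelled KO. In WT CD8 these were 68.3% (28 of 41, 51.9 to 81.9%) and 19.2% (5 of 26, 6.55 to 39.4%). Within a Pdcd1 class the Nr4a2 intervals of the labels overlap. Pdcd1 itself was above 0 in 28.4% of CD8 cells labelled KO and 61.2% of WT CD8 cells. Pdcd1-positive cells held more genes, a median of 3171 against 2777 in CD8 labelled KO and 3676 against 2461.5 in WT CD8. In cells matched on genes detected Nr4a2 was above 0 in 66.7% and 27.8% (18 cells each) of CD8 labelled KO, and in 63.6% and 36.4% (11 each) of WT CD8, Pdcd1-positive first. The matched intervals overlap under both labels. In all kept CD8 cells, before matching, Nr4a1, Nr4a3 and Egr1 were also found more often with Pdcd1. Nr4a1 stood at 61.9% of Pdcd1-positive cells and 56.6% of those with Pdcd1 at 0 in CD8 labelled KO, and at 53.7% and 26.9% in WT CD8. Nr4a3 stood at 57.1% of Pdcd1-positive cells and 30.2% of the others in CD8 labelled KO, and at 34.1% and 7.69% in WT CD8. Egr1 stood at 42.9% of Pdcd1-positive cells and 20.8% of the others in CD8 labelled KO, and at 43.9% and 7.69% in WT CD8. In the matched cells, Pdcd1-positive first, Nr4a1 stood at 55.6% and 61.1% labelled KO (10 and 11 of 18 cells). In WT it stood at 27.3% and 36.4% (3 and 4 of 11). These counts are too close to order the 2 classes, and the intervals overlap. Matched Nr4a3 stood at 50% and 33.3% labelled KO, and at 9.09% and 18.2% in WT (1 and 2 of 11 cells), with overlapping intervals. Matched Egr1 stood at 38.9% and 5.56% labelled KO, and at 27.3% and 18.2% in WT.

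Within CD4 cells the genes were set against Foxp3, the factor that defines regulatory T cells. Among CD4 labelled KO, Egr1 was above 0 in 28.2% of Foxp3-positive cells (11 of 39, 15 to 44.9%) against 64.1% of cells with Foxp3 at 0 (25 of 39, 47.2 to 78.8%). Nr4a3 stood at 25.6% against 53.8% and Egr2 at 5.13% against 25.6% of the same cells, with overlapping intervals. In WT CD4 Nr4a3 stood at 16.7% of Foxp3-positive cells against 12.2% of the others, and Egr2 at 0 of 30 against 1 of 49. In WT CD4 the order of Egr1 was the other way, 46.7% of Foxp3-positive cells (14 of 30) against 22.4% of cells with Foxp3 at 0 (11 of 49), with overlapping intervals. Matched on genes detected, Egr1 stood at 25.0% and 60.7% (28 cells each) in CD4 labelled KO and at 45% and 35% (20 each) in WT CD4, Foxp3-positive first, and the matched intervals overlap under both labels. Nr4a1 was found in 71.8% of Foxp3-positive CD4 cells labelled KO against 69.2% of those with Foxp3 at 0. In WT CD4 its shares were 70% and 42.9%, with overlapping intervals. Foxp3-positive WT CD4 cells held a median of 2822 genes, against 2119 in those with Foxp3 at 0. Matched on genes detected, the WT shares of Nr4a1 were 70% and 50% (20 cells each). Set by label, cells with Foxp3 at 0 held Egr1 in 64.1% labelled KO against 22.4% WT, intervals that do not overlap, and Foxp3-positive cells in 28.2% labelled KO against 46.7% WT. Cells with Foxp3 at 0 held a median of 2500 genes labelled KO and 2119 WT. In the matched cells with Foxp3 at 0 the intervals of the labels overlap, at 40.6 to 78.5% labelled KO and 15.4 to 59.2% WT. That matching was made within each label and not between labels. A value of 0 for Foxp3 in a single cell can also come from shallow reading.

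**Figure D5:**
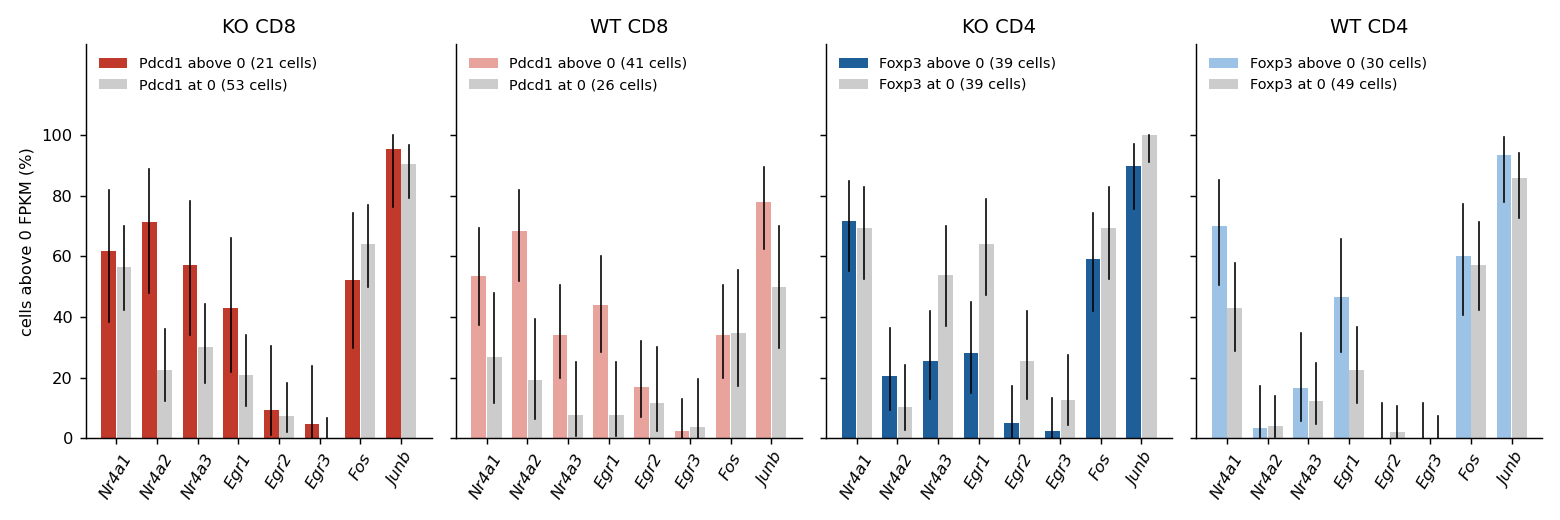
Percent of cells with each gene above 0 FPKM, with exact 95% intervals, in cells with Pdcd1 above 0 (colour) and at 0 (grey) for the CD8 groups, and with Foxp3 above 0 and at 0 for the CD4 groups. Nr4a2 stands at 71.4% and 22.6% in CD8 labelled KO, and Egr1 at 28.2% and 64.1% in CD4 labelled KO.

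The genes with patterns most like Nr4a1 and Egr1 over cells included several early-response genes. Likeness was the Spearman correlation over kept cells with the number of genes detected held fixed, averaged over the 4 groups, among 3587 genes above 0 in at least 20% of cells of every group. Only Nr4a1 and Egr1 met that share. For Nr4a1 the highest were Junb (0.42), Ier2 (0.41), Nfkbid (0.38), Fos (0.36) and the histone demethylase gene Kdm6b (0.36). The value for Fos ran from 0.10 in WT CD4 to 0.46 in CD8 labelled KO. For Egr1 the highest were Nfkbid (0.27), Ier2 (0.27), Junb (0.24), Nr4a1 (0.23) and Bcl2a1d (0.22), a relative of the survival gene Bcl2. The Egr1 values are weak and ran from 0.10 to 0.58 for Ier2 over the groups, and cells of a group come from 1 sample and differ in depth.

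Most genes upstream of the 6 were within 1 of equal, as were most genes of the background. Over all genes past the filter, 5.94% were past 1 upwards and 3.82% downwards in CD8. In CD4 these shares were 7.73% upwards and 0.342% downwards. Of 22 NFAT, calcineurin, SRF, MEF2, CREB and ERK genes past the 10% filter in CD8, 2 were past 1 upwards and 2 downwards (median -0.26), and in CD4 2 of 19 were upwards and 0 downwards (median 0.35). Crem, a CREB-family gene, differed by 1.47 in CD8 and 1.92 in CD4 single cells, and by 0.41 and -0.30 in the CD8 and CD4 population libraries. Map2k2, an ERK pathway kinase, differed by -1.08 in CD8 and 1.82 in CD4. Of the partners and corepressors, 0 of 6 in CD8 were past 1 upwards and 1 downwards, and 0 of 7 in CD4 either way. The EGR corepressor Nab2 was above 0 in 17.6% of CD8 cells labelled KO and 38.8% of WT CD8 cells, a difference of -1.30. Nab1, the other EGR corepressor, differed by -0.39 in CD8, and in CD4 the NR4A partner Rxra differed by 0.59 and the corepressor Rcor1 by 0.61.

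Early-response genes as a class stood higher in cells labelled KO. In CD8, 17 of 26 were past 1 upwards and 1 downwards, with a median of 1.70, and in CD4 12 of 26 were upwards and 0 downwards, with a median of 0.94. Over all genes past the filter, 5.94% were past 1 upwards and 3.82% downwards in CD8, and 7.73% upwards and 0.342% downwards in CD4, and the list counts stand against those shares. Ppp1r15a, a phosphatase subunit of the stress response, and Nfkbia, an NF-kappaB inhibitor, differed by 3.78 and 3.47 in CD8, and Ier2 and Nfkbia by 3.64 and 2.90 in CD4. Heat shock genes had 3 of 8 past 1 upwards and 0 downwards in each cell type, with medians of 0.56 in CD8 and 0.83 in CD4. Their medians in the population libraries had the other sign, at -0.20 in CD8 and -0.18 in CD4. Among them the chaperone Hspa8 differed by 2.20 and Dnaja1 by 1.77 in CD8, and Dnaja1 by 1.21 and Hsp90ab1 by 1.15 in CD4. Beside these, the 6 genes had a median of -0.19 in CD8 and 1.31 in CD4.

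Genes linked to the 6 as targets, or as reporters of the same signal, follow. Their counts stand against the same shares over all genes past the filter. Those were 5.94% upwards and 3.82% downwards in CD8, and 7.73% upwards and 0.342% downwards in CD4. Of 17 NR4A-linked exhaustion and regulatory genes in CD8, 1 was past 1 upwards and 9 downwards (median -1.08), led by the inhibitory receptors Pdcd1 (-3.92) and Lag3 (-3.40). The CD8 population libraries showed this only in part: the list's median was -0.02, with Pdcd1 at -0.51 and Lag3 at -0.25. Of the other genes past 1 downwards in single cells, Tox (-2.70), Entpd1 (-1.01), Tigit (-0.90) and Havcr2 (-0.67) were also lower there. Ikzf2 (1.00), Tnfrsf9 (0.55) and Bhlhe40 (0.53) were higher there. In CD4 4 of 19 were past 1 upwards and 0 downwards (median 0.59), with the costimulatory receptors Tnfrsf4 at 1.51 and Tnfrsf9 at 1.26. Of 13 anergy genes linked to Egr2 and Egr3, 3 were upwards and 1 downwards in CD8 and 2 and 0 in CD4. The cytokine signal inhibitor Socs3 differed by 2.04 and the diacylglycerol kinase Dgkz by -1.24 in CD8, and Socs1 by 1.83 and the cell cycle inhibitor Cdkn1a by 1.53 in CD4. Of T cell receptor activation reporters, 3 of 17 were upwards and 4 downwards in CD8, and 7 of 15 were upwards and 1 downwards in CD4. Their CD8 median was 0.16 in single cells and 1.62 in the population libraries. Cd69, an early activation antigen, differed by 2.73 and Rgs16, a G protein regulator, by -2.66 in CD8, and in CD4 Cish, a cytokine signal inhibitor, by 2.84 and Nfkbid, a nuclear NF-kappaB regulator, by 2.73.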

How the data were processed

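Smart-seq2 libraries, which read full-length cDNA without molecular identifiers, were analysed from 1 table of FPKM values deposited by the authors and scaled across libraries with TMM, per the labels' description. Bowtie, RSEM and mm10 are named in the submitters' processing notes, without versions. FPKM hides depth, so reads were estimated from the steps of low values, using 1205 genes with GENCODE M21 transcripts; in the median library 83.1% of such values fell no more than 0.1 from a whole read count. On simulated data over 9218 genes the estimates had a median ratio of 0.89 to the true reads, and 94% of libraries lay within 25% of the common ratio.

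Cells with at least 1000 genes above 0 were kept. Groups came from titles, and 0 columns were unmapped. Levels are log2(FPKM + 1), with a pseudocount of 1. With 1 sample a group no test was run, and a difference of 1 on the log2 scale in either direction is a size rule only. A filter of 10% of cells, or 1 FPKM for population libraries, set the background. No doublet caller was run, since each library is labelled a single cell. Reads shared between similar genes can be split by RSEM. Named genes were the 6, Fos, Junb, Il27ra, the 2 genes of each list with the largest difference in either direction per cell type and the 5 most alike genes. The NR4A-linked genes past 1 downwards in CD8 single cells were named as well. Pdcd1 and Foxp3 splits matched on genes, and cells with Junb above 0, were chosen after seeing the data. The genes and lists were chosen with earlier results of these data known. Alternatives covered the pseudocount, the cell filter, the scaling, matched cells and Fos or Junb state. Python 3.11.15 with pandas 2.3.3, numpy 2.4.6, scipy 1.17.1 and matplotlib 3.10.9 was used.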

Additional observations from a re-analysis of the deposited data

Results flagged for a closer look

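For 3 of the 5 genes past the 10% filter the difference labelled KO minus WT had opposite directions in CD8 and CD4 single cells, and the difference between the cell types was not tested. Nr4a2 differed by -0.91 in CD8 and 0.72 in CD4. Egr1 differed by -0.37 in CD8 and 1.81 in CD4. Egr2 differed by -0.25 in CD8 and 1.07 in CD4. Egr2 passed the filter only through WT cells in CD8 and only through cells labelled KO in CD4. Nr4a2 passed it in CD4 only through cells labelled KO. Egr3, below the filter, also had opposite signs, -0.14 in CD8 and 0.38 in CD4. In the population libraries all 4 were higher under the KO label in both cell types.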

How the results depend on the processing

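Differences labelled KO minus WT were recomputed under 13 settings. In CD8 Nr4a1 was higher in 13 of 13 (0.18 to 2.09), and Nr4a2 (-2.07 to -0.24) and Egr2 (-0.68 to -0.07) lower in 13 of 13. Nr4a3 ran from -0.16 to 1.13, Egr1 from -1.35 to 0.09 and Egr3 from -2.80 to 0. In CD4 all 6 were higher in 13 of 13, though Egr3, at 0 in every WT CD4 cell, could not come out lower. No value past 1 turned its direction in any of these comparisons. The number of genes past 1 upwards in CD8, 1 of 6, was 2 with a pseudocount of 0.1 or cells matched on genes, and 0 with the log2 of mean FPKM, without cells lacking B2m or Cd3 genes, and with Fos above 0, Fos at 0 or Junb above 0. The number downwards, 0, was 1 with a pseudocount of 0.1, at least 2000 genes, the log2 of mean FPKM, without cells lacking B2m or Cd3 genes, without cells with markers of other types, and matched on reads; it was 2 with Fos or Junb above 0. In CD4 the median of 1.31 was 1.92 with a pseudocount of 0.1, 0.70 with a pseudocount of 10, 2.47 with the log2 of mean FPKM and 0.57 with Fos at 0, and the number upwards, 4, was 6 with the log2 of mean FPKM, 5 with a pseudocount of 0.1, 3 with every library, 2 with a pseudocount of 10 or at least 2000 genes and 1 with Fos at 0. Without the filter the background was 2.29% upwards and 1.47% downwards in CD8 and 2.70% and 0.120% in CD4, and 11.7% upwards in CD4 with a 20% filter. The cause of these moves was not tested. No paired analysis was possible because each group is 1 sample and no test was run. Egr2 and Egr3 rest on at most 12 cells a group, and zeros may reflect depth.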
